A study of Mus musculus with 21 samples.

Results

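Complex I transcripts were examined in single mouse myofibers of 2 types. The members were all non-control probes of the array whose gene name begins with Nduf, which are 53 of 55681 probes and stand for 42 genes. All 53 passed the filter on low signal. The 21 myofibers came from CD1 mice aged 3 months: 11 type 1 (slow, oxidative) myofibers from the soleus and 10 type 2B (fast, glycolytic) myofibers from the EDL, the extensor digitorum longus. The labels name no treatment and no engineered allele, and give male mice while the methods of the study give female ones. Each type came from 6 of 9 mice, and 3 mice gave both types. Each myofiber was freed with collagenase, a part of it was typed by the myosin heavy chain protein it held, and the RNA of the rest was amplified and hybridised to a single-color Agilent array. All type 1 myofibers were from the soleus and all type 2B myofibers from the EDL, so that type and muscle cannot be told apart.

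Complex I (NADH:ubiquinone oxidoreductase) is the entry point of electrons from NADH into the mitochondrial respiratory chain, and pumps protons across the inner membrane. A matrix arm carries the flavin and the iron-sulfur clusters, and a membrane arm holds the proton pumps. The catalytic core of the matrix arm is encoded in the nucleus, the core of the membrane arm in mitochondrial DNA, and both are surrounded by nuclear-encoded accessory subunits. Assembly factors of the Ndufaf series help to build the complex and are absent from the finished enzyme. Slow oxidative myofibers are known for a high mitochondrial content, and type 2B myofibers for a low one.

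The signal is given throughout as log2 of the processed intensity after quantile normalization, and a difference is type 2B minus type 1 on that scale. The Myh7 and Myh4 transcripts followed the labels with 1 exception. Myh7, the slow myosin, lay between 15.53 and 16.28 in the other type 1 myofibers, between 6.78 and 7.84 in the type 2B ones, and at 9.22 in the library labelled type 1 S6.4, in which Myh2 (type 2A myosin) was at 15.22. S16.3 also had Myh2 at 13.03, beside Myh7 at 15.82. Myh4, the type 2B myosin, was at 1.80 to 8.61 in type 1 and at 14.42 to 15.81 in type 2B. Myh1, the type 2X myosin, ran from 1.72 to 12.04 in type 2B and from 1.65 to 9.485 in type 1, the highest being S6.4. It was well above background in 8 of 10 type 2B and 3 of 11 type 1 myofibers. The 75th percentile of the raw signal ran from 52.8 to 520 over the arrays, and no member spot was saturated. In a table of the authors' processed values, the columns of E13.3 and E12.5 followed each other's scanner output (r = 0.875 and 0.95 over 3687 features, against 0.0145 and -0.0146 for their own), while the other 19 columns followed their own. Both are type 2B and came from different mice. Which of the 2 places holds their right labels is not known, and results that rest on the mouse were also computed with the mouse numbers exchanged. Of the markers of other cells, Col3a1 (1 of 4 tested connective tissue genes) and Ncam1 (1 of 3 satellite cell genes) were called higher in type 1, with 0 of 4 endothelial and 0 of 4 blood genes. The summed connective tissue markers lay between 8.13 and 12.21 in type 1 and between 7.73 and 9.43 in type 2B, and the satellite cell markers between 10.50 and 13.03 and between 9.28 and 12.16. Their part in the results was not tested.

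The probes on which the type difference turned are shown first. All are on the plus strand of the mm9 assembly, in lower case from the 5′ end. The probe A_51_P140211 of Ndufv3 (chr17:31665148-31665207) is given whole with its 60 bases, and 2 of its 3 reading frames on this strand hold no stop codon. Of the others the first 30 bases are given: the second Ndufv3 probe A_55_P2184180 (chr17:31668209-31668268), both Ndufb5 probes, A_55_P2103352 (chr3:32650097-32650156) and A_51_P201904 (chr3:32650236-32650295), and the Ndufb3 probe A_51_P160744 (chr1:58652622-58652681). Over its 60 bases the second Ndufv3 probe has 1 frame without a stop codon, and the Ndufb5 and Ndufb3 probes have 0. Such a count does not show whether a probe is coding.
Ndufv3 A_51_P140211: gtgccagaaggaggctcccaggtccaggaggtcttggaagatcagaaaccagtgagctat
Ndufv3 A_55_P2184180: ggtagaccccgatgttggttcccatgaatc
Ndufb5 A_55_P2103352: gtgtgtccctctagtgggaagaaatgaata
Ndufb5 A_51_P201904: cagggtagtaatgaaacctggaggtctggg
Ndufb3 A_51_P160744: ccagaatggtgataagaagcatcactgaag
The 2 Ndufv3 probes lie 353 bases apart in the transcript and 3061 bases apart in the genome. The 2 Ndufb5 probes lie 139 bases apart in both.

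Few complex I transcripts were called different between the fiber types, and few probes of the whole array were. By its brightest probe, 1 of 42 genes was called higher in type 1 at a Benjamini-Hochberg adjusted p of at most 0.05 over all tested probes (limma), and that gene was Ndufb3. None was called higher in type 2B. At an unadjusted p of at most 0.05 these counts were 5 and 0, and 9.08% and 9.4% of all tested probes passed in the same directions. By probe, 3 of 53 were called higher in type 1, in Ndufv3, Ndufb5 and Ndufb3, and 0 in type 2B, with 7 and 1 at the unadjusted threshold. Of all 46961 tested probes, 7.56% were called, 4.09% higher in type 1 and 3.47% higher in type 2B, so that the share of the member probes, 5.66%, was near the background. Without S6.4, 1 gene and 2 probes were called higher in type 1, and 0 genes and 1 probe higher in type 2B. With Bonferroni adjustment 1 member probe was left, in Ndufv3, against 1.43% of all tested probes.

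The differences of the members were small and more often below 0 than above. In 31 of 42 genes the difference was below 0, and 47.7% of all tested probes were on that side. The median over the 42 genes was -0.16, against 0.03 over all tested probes. When the arrays were scaled by their 75th percentile in place of quantile normalization, the median of the members was 0.04 and 20 genes were below 0, so that the direction of the list is not settled. In 34 of 42 genes the 95% interval of the difference lay within 1 log2 unit (2-fold) of 0, and in 8 genes it lay within 0.5. The share within 1 log2 unit was lower over all tested probes, at 40.6%, and probes of like signal were not compared. The plot of differences by role shows the called probes apart from the rest.

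**Figure D1:**
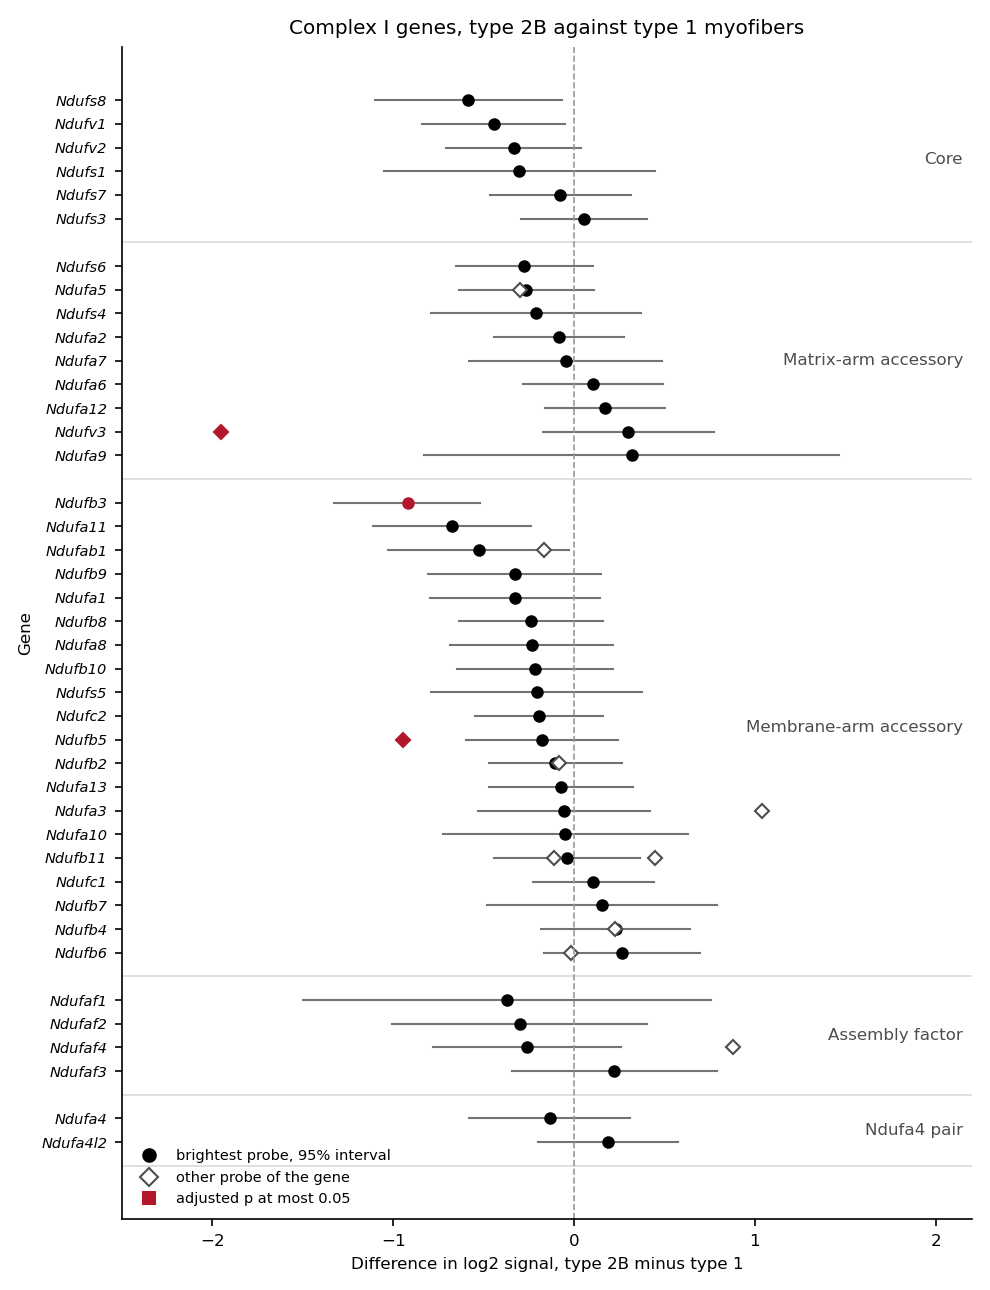
Difference in log2 signal (x axis, type 2B minus type 1) of 41 of the 42 Nduf genes (y axis), grouped by role. Circles are the brightest probe of a gene with its 95% interval, diamonds are other probes of the same gene, and red marks an adjusted p of at most 0.05. Ndufb3 is the called gene by its brightest probe, and the red diamonds of Ndufv3 at -1.95 and Ndufb5 at -0.95 lie away from the brightest probes of the same genes, at 0.30 and -0.18.

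Ndufv3 is a small accessory subunit of the matrix arm that sits beside the flavin-bearing subunits, and is known to be made in a short and a long protein form by use of a large coding exon. Its probe A_51_P140211 gave the largest difference of any member. The 11 type 1 myofibers ran from 8.96 to 10.30 with a median of 9.54, and the 10 type 2B myofibers from 7.24 to 8.28 with a median of 7.55. The types did not overlap, which held for 1 member probe and for 1.34% of all tested probes. Each of the 21 myofibers had it well above background. The difference was -1.95 (SE 0.19, 95% interval -2.35 to -1.56), which is 3.87-fold higher in type 1 with limits of 2.94 and 5.10, at an adjusted p of 1.49e-07 (limma, Benjamini-Hochberg). The mean over mice was 9.62 ± 0.27 for type 1 and 7.66 ± 0.35 for type 2B (SD, n = 6 each), with an exact permutation p of 0.00217, two-sided, the smallest that these groupings of mice can give. The 3 mice with both types gave differences of -1.56, -2.28 and -2.52, and the 3 slides with both types gave -2.13, -2.37 and -1.64. Without S6.4 the difference was -1.89.

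The brighter Ndufv3 probe, A_55_P2184180, showed no such difference. Type 1 myofibers ran from 12.07 to 13.48 with a median of 12.63, type 2B myofibers from 12.58 to 13.79 with a median of 12.84, and the types overlapped. The difference was 0.30 (SE 0.23, 95% interval -0.17 to 0.77, adjusted p = 0.55 by limma). A further probe that the array describes as Ndufv3 without giving it that name, at chr17:31663758-31663817 of mm9, differed by -0.19 (SE 0.28, adjusted p = 0.80 by limma). The change of the probe A_51_P140211 relative to A_55_P2184180 within a myofiber was tested over mouse means: it was -2.09, with an exact permutation p of 0.00217 and an adjusted p of 0.026 over the 12 pairs of probes from the same gene. The permutations treat the mice that gave both types as separate animals in each type. Within those 3 mice the change was -2.26, -2.64 and -2.48. Whether A_51_P140211 lies in the exon that tells the protein forms apart was not determined here.

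Ndufb5, an accessory subunit of the membrane arm, also had probes that went apart. For A_51_P201904, type 1 myofibers ran from 10.92 to 12.42 with a median of 11.77, and type 2B myofibers from 8.90 to 11.59 with a median of 10.84. The types overlapped, the lowest value being that of E7.7. The difference was -0.95 (SE 0.28, adjusted p = 0.034 by limma), and the call was lost without S6.4 (-0.87, adjusted p = 0.063) and in 7 of the 9 fits that left out a mouse. It was also lost when the mouse was taken as a fixed block, at -0.62 and an adjusted p of 0.47, when the values of a mouse were averaged first (0.052) and when the slide was a block (0.072). The mice with both types gave -0.49, -0.63 and -1.07, and the slides with both types -1.06, -0.40 and -0.91. For A_55_P2103352, type 1 myofibers ran from 12.15 to 13.37 and type 2B myofibers from 12.02 to 13.28, with a difference of -0.18 (SE 0.20, adjusted p = 0.72 by limma). Of 2 further probes that the array describes as Ndufb5 under other names, A_55_P2125139 differed by 0.05 (adjusted p = 0.95) and A_55_P2125144 by -0.19 (adjusted p = 0.74). A_51_P201904 changed relative to A_55_P2103352 by -0.85 over mouse means, with an exact permutation p of 0.00433 and an adjusted p of 0.026 over the 12 pairs. Within the 3 mice that gave both types this change was -0.58, -0.07 and -1.25. With the mouse numbers of E13.3 and E12.5 exchanged it was -0.80 and no longer passed (exact permutation p = 0.013, adjusted p = 0.078). Both Ndufv3 and Ndufb5 were singled out after their values were seen, since the called probe of each is not its brightest.

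Ndufb3, another accessory subunit of the membrane arm, has 1 probe. Type 1 myofibers ran from 13.10 to 14.03 with a median of 13.67, and type 2B myofibers from 12.11 to 13.36 with a median of 12.61. The values overlapped between 13.10 and 13.36, where 4 type 1 myofibers and the highest type 2B myofiber lay. The difference was -0.92 (SE 0.19, 95% interval -1.32 to -0.52), or 1.89-fold higher in type 1 with limits of 1.43 and 2.50, at an adjusted p of 0.0029 (limma). The mean over mice was 13.55 ± 0.17 for type 1 and 12.63 ± 0.32 for type 2B (SD, n = 6 each), and these means did not overlap (exact permutation p = 0.00217). Mouse means did not overlap for 3 of 53 member probes, those of Ndufv3, Ndufb5 and Ndufb3, and for 4.96% of all tested probes. Within mice the difference was -0.88, -0.71 and -1.16, and within slides -0.71, -1.03 and -0.85. With the mouse as a fixed block it was -0.89 and was no longer called (adjusted p = 0.17 by limma), and without S6.4 it was -0.87 (adjusted p = 0.0062).

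**Figure D2:**
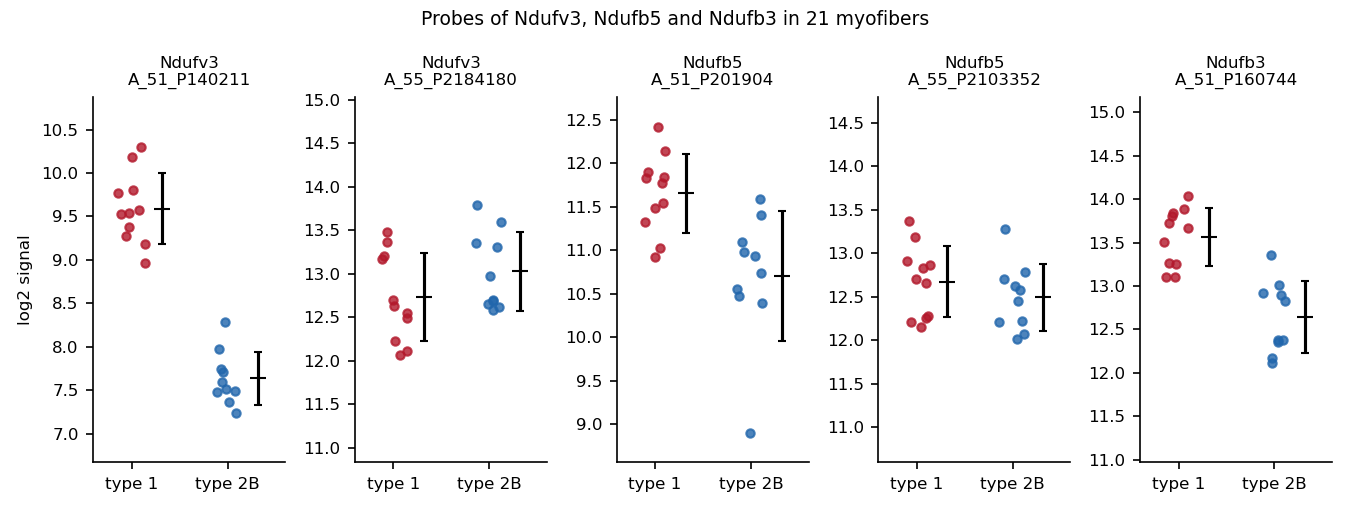
Signal (y axis, log2) of 5 probes in 11 type 1 and 10 type 2B myofibers (x axis). Each point is a myofiber, the bars are the mean and the SD, and each panel spans the same range of log2 units. The types are apart for Ndufv3 A_51_P140211 (8.96 to 10.30 against 7.24 to 8.28), and overlap for the other 4 probes.

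None of the 7 core subunits was called, and 6 of the 7 differences were below 0 with a median of -0.30. The largest was in Ndufs8, which carries iron-sulfur clusters on the way to the quinone site: type 1 ran from 10.84 to 12.84 (median 11.75) and type 2B from 10.45 to 11.83 (median 11.18), with a difference of -0.58 (SE 0.25, adjusted p = 0.20 by limma). Ndufv1, which binds the flavin and NADH, differed by -0.44 (SE 0.19), also at an adjusted p of 0.20. The smallest was in Ndufs3, at 0.06 (SE 0.17), where type 1 ran from 13.03 to 14.03 and type 2B from 12.83 to 13.81. Ndufs3, Ndufs7, Ndufv1 and Ndufv2 had 95% intervals that lay within 1 log2 unit of 0.

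Of the 9 accessory subunits of the matrix arm, 0 were called by their brightest probe in either direction, with a median difference of -0.05. The lowest was Ndufs6, a zinc-binding subunit, at -0.28 (SE 0.18, adjusted p = 0.47 by limma), with medians of 14.09 in type 1 and 13.80 in type 2B. The highest was Ndufa9 at 0.32 with an SE of 0.55, the widest of any gene. Ndufs4, which is among the subunits lost in inherited complex I deficiency, differed by -0.21 (SE 0.28), and its type 2B values spanned 10.86 to 13.79.

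The 20 accessory subunits of the membrane arm gave the 1 called gene, Ndufb3, and a median difference of -0.19, with 16 of 20 below 0. Next to it came Ndufa11, a subunit at the joint of the arms, with 11.23 to 12.78 (median 12.36) in type 1 and 11.18 to 12.21 (median 11.61) in type 2B. Its difference was -0.67 (SE 0.21), just over the threshold at an adjusted p of 0.054 (limma), and the settings fell on both sides of it, from an adjusted p of 0.020 without mouse 2 to 0.18 with the 75th percentile and 0.51 with the mouse as a fixed block, with 0.093 without S6.4. Ndufab1, the mitochondrial acyl carrier protein, differed by -0.53 (SE 0.24, adjusted p = 0.24 by limma). The highest was Ndufb6 at 0.26 (SE 0.21).

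The dimmer probe of Ndufa3, A_51_P431772, was the only member probe with an unadjusted p of at most 0.05 toward type 2B. Type 1 myofibers ran from 4.54 to 7.16 with a median of 6.03, type 2B myofibers from 5.94 to 7.73 with a median of 7.10, and the types overlapped. It was well above background in 9 of 11 type 1 and in all 10 type 2B myofibers. The difference was 1.04 (SE 0.33, adjusted p = 0.055 by limma), against -0.05 (SE 0.23) for the brighter probe of the gene, A_55_P2184128, and the change of one relative to the other was not called (1.26, exact permutation p = 0.030, adjusted p = 0.12 over the 12 pairs). A further probe that the array describes as Ndufa3 under another name, A_55_P2079973, differed by -0.05 (adjusted p = 0.94 by limma). Without S6.4 A_51_P431772 was called (1.17, adjusted p = 0.025), and within slides 1, 2 and 3 its difference was 0.33, 0.64 and 2.38. The type 1 myofibers of slide 3, S11.3 (5.79) and S10.10 (4.54), were those not well above background for A_51_P431772.

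None of the 4 assembly factors was called. Their differences ran from -0.37 in Ndufaf1 to 0.22 in Ndufaf3, with a median of -0.28 and wide errors (SE 0.55 for Ndufaf1 and 0.34 for Ndufaf2). Ndufaf4 has 2 probes, at -0.26 (SE 0.25) for the brighter A_51_P162098 and at 0.88 (SE 0.54) for A_55_P1990648, which spanned 7.14 to 10.72 in type 1 and 7.68 to 12.52 in type 2B. A further 8 assembly genes without an Nduf name were on the array (Acad9, Ecsit, Tmem126a, Tmem126b, Foxred1, Nubpl, Tmem70 and Tmem186), and 0 of these 8 were called, with 0 at an unadjusted p of at most 0.05 toward type 1 and 1 toward type 2B (limma).

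Ndufa4 and its paralog Ndufa4l2 carry complex I names, but Ndufa4 is now placed in complex IV, and Ndufa4l2 is known as a gene induced by low oxygen. Ndufa4 ran from 11.94 to 13.12 (median 12.54) among type 1 and 11.74 to 13.32 (median 12.29) among type 2B myofibers, a difference of -0.13 (SE 0.22, adjusted p = 0.82 by limma). Ndufa4l2 ran from 5.91 to 6.66 among type 1 and 5.80 to 7.18 among type 2B myofibers, a difference of 0.19 (SE 0.19, adjusted p = 0.67 by limma). For Ndufa4, the type 2B myofiber E14.3 (13.32) lay above every type 1 myofiber, and E13.3 (11.74) and E11.9 (11.86) lay below. For Ndufa4l2, E10.4 (7.18) and E15.3 (7.11) lay above every type 1 myofiber, and E11.9 (5.80) lay below. Both intervals, -0.58 to 0.31 and -0.20 to 0.58, lay within 1 log2 unit of 0. Ndufa4l2 was well above background in all 11 type 1 and all 10 type 2B myofibers, but dim. The lowest signal of any probe well above background reached 5.51, in E15.3. A difference in so dim a probe may be understated, which was not tested.

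The subunits encoded in mitochondrial DNA form the proton-pumping core of the membrane arm, and were represented by ND1, ND3, ND4L, ND5 and ND6. None of these 5 was called, and all 5 differences were below 0, from -0.32 (SE 0.20) in ND4L to -0.03 (SE 0.24) in ND3, with a median of -0.26. ND1 ran from 14.50 to 15.96 among type 1 and 14.57 to 15.69 among type 2B myofibers. A probe described as ND4 under another name differed by -0.18 (SE 0.21). The probes named Gm12251, Gm13888 and LOC675851, which the array describes as Ndufs3, Ndufab1 and Ndufc2, differed by -0.01, -0.56 and -0.27. The first overlaps the Ndufs3 probe on chromosome 2 and the third lies beside the Ndufc2 probe on chromosome 7, while the second lies on chromosome 2 and the Ndufab1 probes on chromosome 7.

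Of the 42 genes, 10 had more than 1 probe, which gave 12 pairs of probes. Apart from Ndufv3 and Ndufb5, 0 of the other 10 pairs changed relative to each other at an adjusted p of at most 0.05 (exact permutation test over mouse means). The smallest change was in Ndufb2, at 0.03, followed by Ndufb4 and Ndufa5 at 0.03 and 0.06. The difference between types was -0.26 by the brighter and -0.30 by the dimmer probe of Ndufa5, and 0.23 by each probe of Ndufb4.

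The difference between the types was smaller than the SD between myofibers of a type in 36 of 42 genes, and larger in Ndufa11, Ndufab1, Ndufb3, Ndufs8, Ndufv1 and Ndufv2. This SD was 0.42 in the median gene, from 0.23 in Ndufc1 to 1.35 in Ndufa9, and was above 0.5 in 13 of 42 genes. In 10 of 1109 member spots the signal was more than 2 log2 units from the median of the other myofibers, 7 below and 3 above, in 6 genes and 7 myofibers. Ndufa9, a subunit at the base of the matrix arm, was at 6.72 in S6.4 and at 9.31 in S5.9, while the other 19 myofibers lay between 11.00 and 12.80. Without S6.4 its difference turned from 0.32 to -0.15. Ndufaf1 was at 4.67 in S11.3 and at 4.98 in E9.6, against a median of 8.67 over the others, and Ndufb7 was at 12.28 in S11.3. The 3 high spots were all in A_55_P1990648 of Ndufaf4, with 12.52 in E15.3, 10.81 in E12.5 and 10.72 in S5.9 against a median of 8.04. The map of genes by myofiber holds only the brightest probe of a gene, and shows the low spots of Ndufa9 and Ndufaf1 as single cells of strong color. The probe A_55_P1990648 is not on the map.

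**Figure D3:**
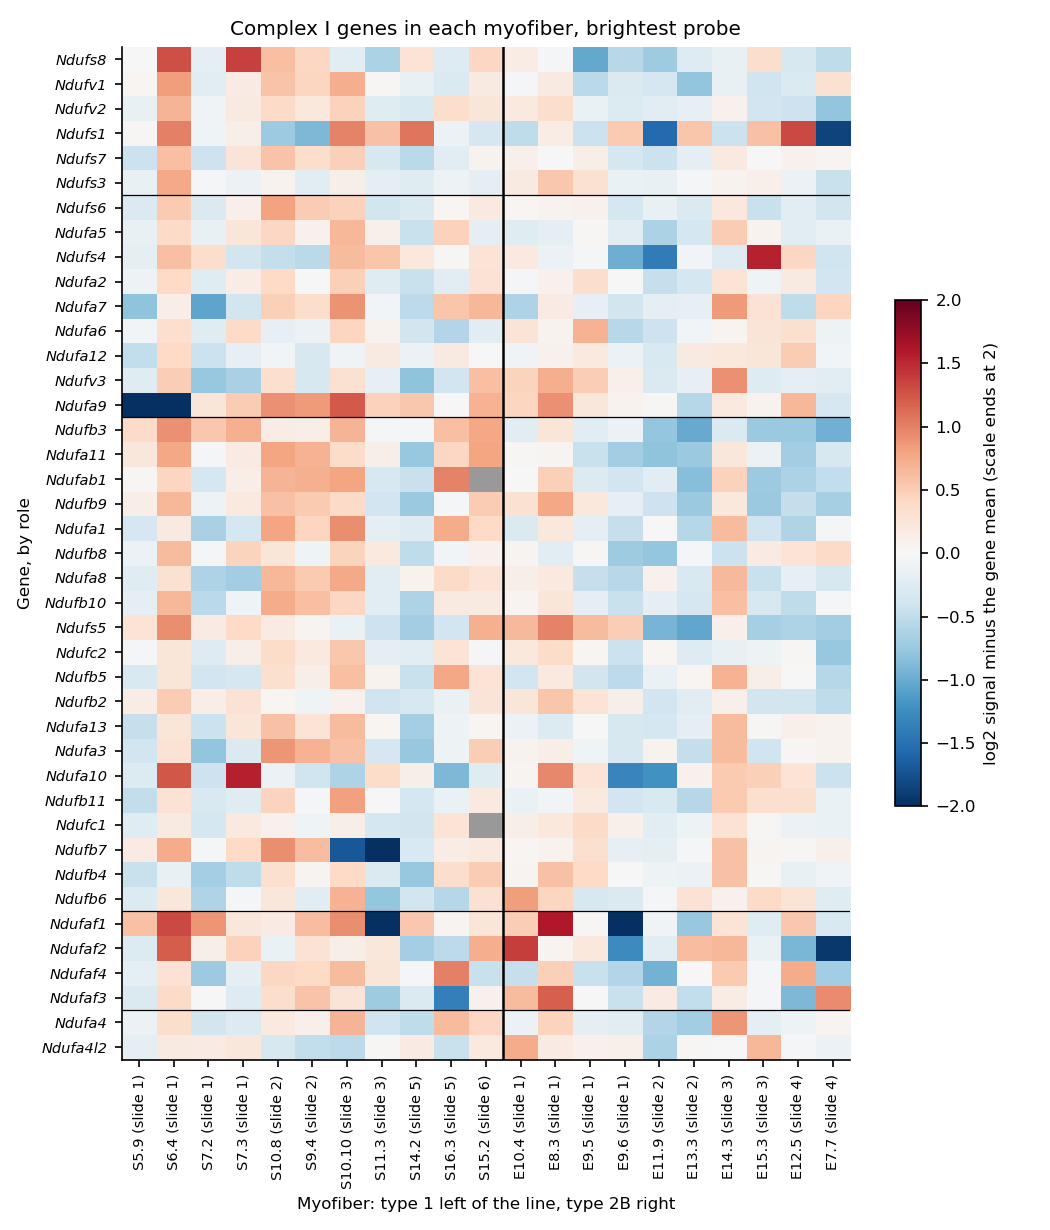
Signal of the brightest probe of 41 of the 42 genes (rows, by role) in each of the 21 myofibers (columns, with slide), as log2 signal minus the mean of the gene; red is higher, blue is lower, the color scale ends at 2 and gray marks spots dropped as outliers. Single dark cells are Ndufa9 in S6.4 and S5.9 and Ndufaf1 in S11.3 and E9.6, and the row of Ndufb3 is mostly red left of the line and blue right of it.

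Whole columns of the map also shifted. The median over the 42 genes of a myofiber, taken from the mean of each gene, ran from -0.34 to 0.47 among type 1 (mean 0.08, SD 0.29, n = 11) and -0.33 to 0.25 among type 2B myofibers (mean -0.07, SD 0.21, n = 10), and the types overlapped. The shift differed between slides. The median difference of the 42 genes was -0.02 within slide 1 (4 myofibers of each type), -0.64 within slide 2 (2 of each) and 0.02 within slide 3 (2 of each), against medians of 0.09, 0.02 and 0.04 over all tested probes. On slide 2, 36 of 42 genes were below 0. The type 1 myofibers S10.8 and S9.4 had medians of 0.36 and 0.16 there, and the type 2B myofibers E13.3 and E11.9 had -0.20 and -0.31. The 3 mice with both types gave median differences of 0.09, -0.30 and -0.15.

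**Figure D4:**
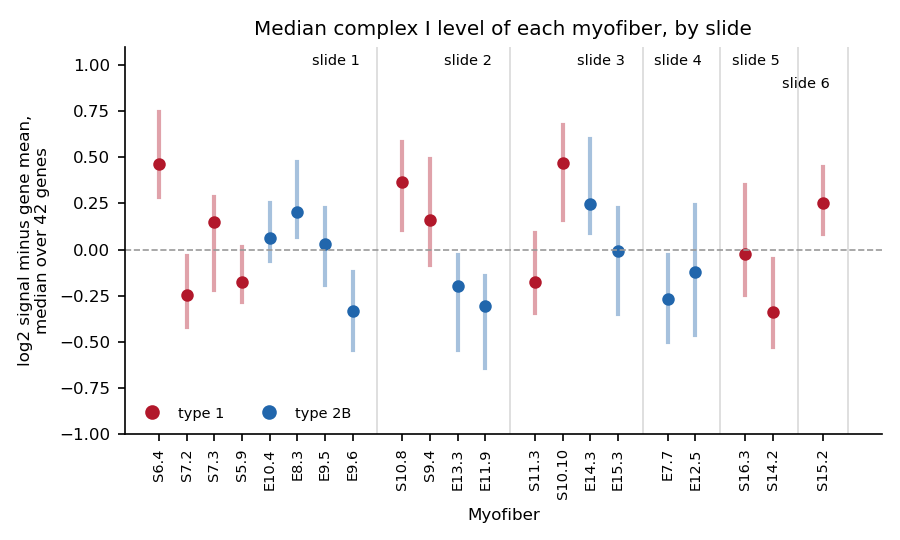
Median over the 42 genes of log2 signal minus the gene mean (y axis) for each myofiber (x axis), grouped by slide; bars span the middle of the genes, from the lower to the upper quartile. Type 1 (red) and type 2B (blue) overlap on slides 1 and 3, and are apart on slide 2, with 0.36 and 0.16 against -0.20 and -0.31.

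The subunits of the other respiratory complexes were measured on the same arrays, with the inhibitor Atpif1 counted in complex V. Of these 44 genes of complexes II to V, 4 (9.09%) were called higher in type 1 and 0 in type 2B (limma). Their median difference was -0.31, and 4.09% and 3.47% of all tested probes were called in the same directions. The called subunits were Cox6a1 (-1.23) and Cox8a (-1.06) of complex IV, Atp5h (-0.68) of complex V and Uqcrc2 (-0.64) of complex III. The medians of complexes II, III, IV and V were -0.56, -0.29, -0.26 and -0.31, and that of the 36 nuclear-encoded complex I subunits was -0.15, with 1 called. The difference between these lists was not tested. Idh2, a matrix enzyme that makes NADPH, was the 1 called gene of 11 other mitochondrial genes, at -3.94 (SE 0.23).

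**Figure D5:**
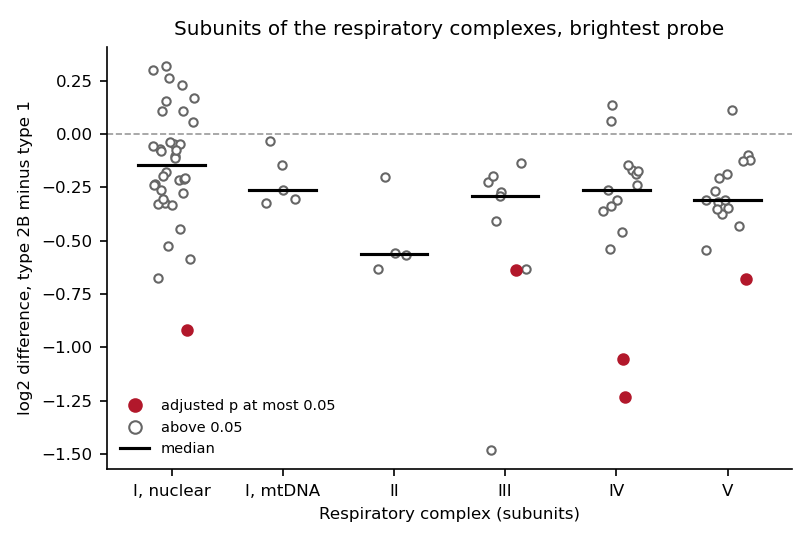
Difference in log2 signal (y axis, type 2B minus type 1) of the subunits of each respiratory complex (x axis) by the brightest probe; each point is a gene, red marks an adjusted p of at most 0.05 and the line is the median. Medians run from -0.15 for the nuclear-encoded subunits of complex I to -0.56 for complex II, and 5 genes are red. Complex V includes the inhibitor Atpif1.

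Of 12 regulators of mitochondrial genes, Esrrb, Esrrg and Ppargc1b, or 3, were called higher in type 1 and 0 in type 2B. Over all tested probes the shares were 4.09% and 3.47%. Esrrb ran from 8.90 to 11.33 among type 1 and 3.06 to 5.48 among type 2B myofibers and Esrrg, like Esrrb an estrogen-related receptor (ERR), from 7.77 to 12.37 and from 1.70 to 9.23. In type 2B only 4 of 10 myofibers had Esrrb and 3 of 10 had Esrrg well above background, so that the size of either difference was not well measured. The coactivator gene Ppargc1b differed by -0.79 (SE 0.21). Nrf1, which codes for a factor known to bind promoters of respiratory genes, differed by -0.26 (SE 0.57, adjusted p = 0.88 by limma).

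Promoters of the members were read for the motifs of regulators in that list, from 250 bases before to 50 bases after the start site (RefSeq, GRCm38.p6, both strands). Of 42 genes, 37 had a promoter in the table, which holds 17491 promoters of protein-coding genes. The NRF-1 letters, GCGC, any base and TGCGC in a row, were in 8 of 37 (21.6%) against 6.45% of all 17491, and the YY1 letters AAGATGGC in 7 of 37 (18.9%) against 3.22%. The GABP letters CCGGAAG were in 5 of 37 (13.5%) against 11.8%, and the ERR letters CAAGGTCA in 1 of 37 (2.7%), Ndufs5, against 1.31%. The motifs do not overlap each other in these promoters. The NRF-1 windows of 30 bases are shown for the 8 genes, because the motif was the most common of these among the members, with the motif in capitals on either strand; of the 3 in Ndufb4 the one nearest to the start site is given. The last line is the ERR motif of Ndufs5.
Ndufa5 (chr6:24527697-24527726, minus strand): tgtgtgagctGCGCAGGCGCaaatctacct
Ndufa6 (chr15:82354249-82354278, minus strand): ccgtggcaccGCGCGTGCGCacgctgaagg
Ndufa8 (chr2:36049349-36049378, minus strand): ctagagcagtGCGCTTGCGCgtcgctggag
Ndufa11 (chr17:56717692-56717721, plus strand): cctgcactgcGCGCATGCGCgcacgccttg
Ndufaf4 (chr4:24897960-24897989, plus strand): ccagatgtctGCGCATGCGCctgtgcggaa
Ndufb4 (chr16:37654371-37654400, minus strand): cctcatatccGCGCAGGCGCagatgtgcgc
Ndufs5 (chr4:123718265-123718294, minus strand): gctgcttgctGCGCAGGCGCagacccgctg
Ndufs6 (chr13:73328479-73328508, minus strand): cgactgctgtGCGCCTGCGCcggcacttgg
Ndufs5, ERR (chr4:123718396-123718425, minus strand): tttctcgagtgTGACCTTGctcaagtagca
By the brightest probe, 0 of these 8 genes were called between the types (limma), and their differences ran from -0.67 in Ndufa11 to 0.23 in Ndufb4. With 7.56% of all tested probes called, 0 of 8 genes is near the background. Ndufs5, with both motifs, ran from 10.25 to 11.88 among type 1 and 9.92 to 11.95 among type 2B myofibers, a difference of -0.21 (SE 0.28, adjusted p = 0.78 by limma).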

How the data were processed

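For each array the authors deposited Feature Extraction 10.7.3.1 scanner output, with a processed intensity that is corrected for background within the array and not normalized between arrays. This intensity was quantile normalized and taken as log2 (limma 3.58.1, R 4.3.3). Spots flagged as outliers were dropped, among them 4 member spots, and spots of the same probe were averaged. Tests covered 46961 probes, those flagged positive and significant in 50% or more of either type. In limma the mouse was a random block (consensus correlation -0.018), and p-values were adjusted over all tested probes. The fit was checked on simulated data with known differences. Their noise was independent between myofibers and held no mouse or slide effect, so that the block itself was not checked. Exact permutation tests used mouse means, 6 against 6. A gene was represented by its brightest probe. The members, gene lists and tests were chosen with earlier results of these data known. Values per myofiber were given for called genes with the smallest p (up to 6 in each direction), for Ndufa4 and Ndufa4l2, and for any gene with probes called in opposite directions, and otherwise for the extremes of each role group. No gene had probes called in opposite directions. Other members, among them Ndufv3, Ndufb5, Ndufa3, Ndufs4, Ndufs5, Ndufv1 and Ndufab1, were described outside this rule. Alternatives covered scaling, background, filters, blocks, threshold, test, probes and single mice. The authors' value table, which holds normalized intensity for 3687 of the non-control features, was read only to set each column against the scanner output. Genes of the lists without a probe of that name were not analysed here. Python 3.11.15, pandas 2.3.3 and scipy 1.17.1 were used for the other steps. Values of 1 member gene are not reported here, and it enters only counts and medians.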

Additional observations from a re-analysis of the deposited data

Results flagged for a closer look

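In the 10 type 2B myofibers, 3 of 53 member probes had a single myofiber whose gap to the nearest other was large against the range of the group. Chance gives about 1 in 20 such groups, or 2.65 of 53, so that 3 is near the number chance gives. The 11 type 1 myofibers are too many for this measure and were not examined with it. Ndufaf1 (A_55_P2157922) was at 4.98 in E9.6, with the others between 7.65 and 10.01. Ndufb5 (A_51_P201904) was at 8.90 in E7.7, with the others between 10.39 and 11.59, and without mouse 7, which gave this myofiber, the difference between types was -0.74 with an adjusted p of 0.042 (limma). Ndufa13 (A_51_P381360), a subunit of the membrane arm also known as GRIM-19, was at 15.51 in E14.3, with the others between 14.53 and 14.98.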

How the results depend on the processing

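No setting called a complex I gene higher in type 2B by its brightest probe, and leaving out S6.4 or a mouse gave 0 to 0. The count of genes higher in type 1 was 2 with normexp, with the well above background filter, without a filter and with the methods' t-test, where Ndufa11 joined Ndufb3, and 2 with the mean of the probes of a gene, where Ndufv3 joined it. It was 0 with the mouse as a fixed block, with Bonferroni adjustment of limma or of the t-test, and within each of slides 1, 2 and 3. Leave-one-out counts were 1 to 2, the 2 being without mouse 2. Member probes higher in type 1 numbered 1 with the mouse as a fixed block, with Bonferroni adjustment of either test and within slide 1, and 0 within slides 2 and 3, with 2 to 3 under leave-one-out. Within slides 1, 2 and 3 the fits called 1411, 13 and 0 of all 46961 tested probes. The counts of 0 within slides 2 and 3 therefore say little about the members. A member probe was called higher in type 2B, 1 in each case and that of Ndufa3, with the 75th percentile, normexp and the well above background filter, and leave-one-out gave 0 to 1 (without S6.4, mouse 4 or mouse 6). The median difference of the 42 genes was -0.64 within slide 2, -0.34 to -0.10 under leave-one-out, and 0.04 with the 75th percentile. Ndufa4 reversed within slides 1 and 3 (0.083 and 0.206), Ndufv3 A_55_P2184180 within slide 2 (-0.237) and Ndufb5 A_55_P2103352 within slide 3 (0.0657). Ndufv3 A_51_P140211 was called in all 14 other settings on all slides, at -2.14 to -1.66. Over all tested probes the calls fell from 3551 to 1386 with the mouse as a fixed block and to 2297 with unflagged spots missing, where the median of all probes was -0.09. With the mouse numbers of E13.3 and E12.5 exchanged, which was chosen after seeing the data, the calls of member genes and probes were 1 and 3 higher in type 1 and 0 in type 2B. With the mouse as a fixed block besides, they were 0 and 1, and Ndufa4 reversed (0.000594). The difference of Ndufv3 A_51_P140211 was called under the exchange also without mouse 3 or mouse 5, and within mouse 3 it was -1.47, with -0.75 for Ndufb5 A_51_P201904 and -0.81 for Ndufb3. The causes were not tested. The replicate numbers do not pair the myofibers: same-numbered deviations correlated at a median of -0.03, and 1 of 10 correlated best with its own number. With the replicate block 1 gene and 2 probes were called higher in type 1 (Ndufb3 at -0.88, adjusted p = 0.044), and 0 in type 2B. Dim probes and 6 mice a type limit the precision.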

Other observations

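Across the 21 myofibers, with the mean of its type taken from each value, Pearson's r over the 861 pairs of member genes had a median of 0.36, and 276 pairs (32.1%) were above 0.5. Over all pairs of the 45810 tested probes with a value in every myofiber the median was 0.01, and 3.29% of the pairs were above 0.5. Most members are bright, and pairs of like signal were not compared. The highest values were for Ndufb2 with Ndufs5 (0.93), Ndufb2 with Ndufb3 (0.90) and Ndufa3 with Ndufb10 (0.90), and the lowest for Ndufa1 with Ndufa4l2 (-0.49). The points share arrays, slides and mice, the pairs were picked after their values were seen, and no test was run.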
